A study of Mus musculus with 30 samples.

Results

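The striatum of NestinTK+ mice treated with ganciclovir (GCV) was compared with that of NestinTK+ mice given phosphate-buffered saline (PBS). These were 9 of the 15 striatum libraries and of the 30 libraries of the series, 5 from NestinTK+GCV+ and 4 from NestinTK+PBS+ mice, with 1 library per mouse. All 9 mice carried a transgene on a C57Bl/6 background, in which an enhancer from the second intron of Nestin drives a viral thymidine kinase (TK), so that any dividing cell in which this enhancer is active can be a target. GCV or PBS was delivered subcutaneously by minipump for 4 weeks. The only labelled difference between the groups was therefore the agent in the pump. The same agents were given to 6 mice without the transgene, 3 NestinTK-GCV+ and 3 NestinTK-PBS+, which served to set the effect of GCV alone beside it. The labels give neither age nor sex. RNA was read at its 3′ end (QuantSeq), and values are counts per 1e6 counts of a library (CPM) with TMM library factors, given in the order of the replicates. The question was what the striatum expresses after the precursor cells of the neighbouring subventricular zone (SVZ) have been ablated.

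The thymidine kinase turns GCV into a toxic nucleotide, and cells that carry the enzyme and divide are killed. Endogenous neural precursor cells (eNPCs) of the SVZ divide throughout life and send neuroblasts to the olfactory bulb, whereas the striatum beside them consists mostly of non-dividing medium spiny neurons (MSNs) with interneurons, astrocytes, oligodendrocytes and microglia. Neurons of the brain are rich in long noncoding RNAs that stay in the nucleus, among them Malat1 in nuclear speckles and Meg3, which is transcribed from the maternal chromosome of the imprinted Dlk1-Dio3 region.

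The striatum libraries held 2.63 to 3.37 M (M, 1e6) counts in NestinTK+GCV+ mice and 2.78 to 4.64 M in NestinTK+PBS+ mice. Mitochondrial transcripts took 6.04% to 8.27% of them. All 15 striatum libraries had the expression of female tissue. Xist, from the inactive X chromosome, was at 191 to 380 CPM, and the Y-linked Eif2s3y was at 0 and Ddx3y at or below 0.374 CPM. Spiny neuron markers were abundant in every NestinTK+ library. Penk, the enkephalin precursor of indirect-pathway MSNs, was at 1150 to 2856 CPM in them and Ppp1r1b, which encodes DARPP-32, at 1278 to 2662 CPM. Replicate 4 of the NestinTK+PBS+ group stood apart. In it 77 genes had at least 10 CPM and over 3 times the level of every other library, against at most 1 such gene in any other library. The 11 markers of septum and thalamus summed to 1239 CPM there, against 90.1 to 144 CPM in the other 3 PBS libraries and 91.6 to 178 CPM in the GCV libraries. Choroid plexus markers summed to 2239 CPM against 250 to 254 CPM in the other PBS libraries, oligodendrocyte markers to 11544 against 5672 to 6580 CPM, and shared MSN markers to 8856 against 17724 to 20118 CPM. The main counts below are therefore given with and without this library. Libraries numbered up to 10 all came from GCV mice and those from 11 on from PBS mice, so numbering order and treatment cannot be told apart. Gm42418, a transcript that overlaps ribosomal RNA sequence, took 4.07% to 6.01% of the counts in the GCV libraries and 6.51% to 10.5% in the PBS libraries.

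**Figure D1:**
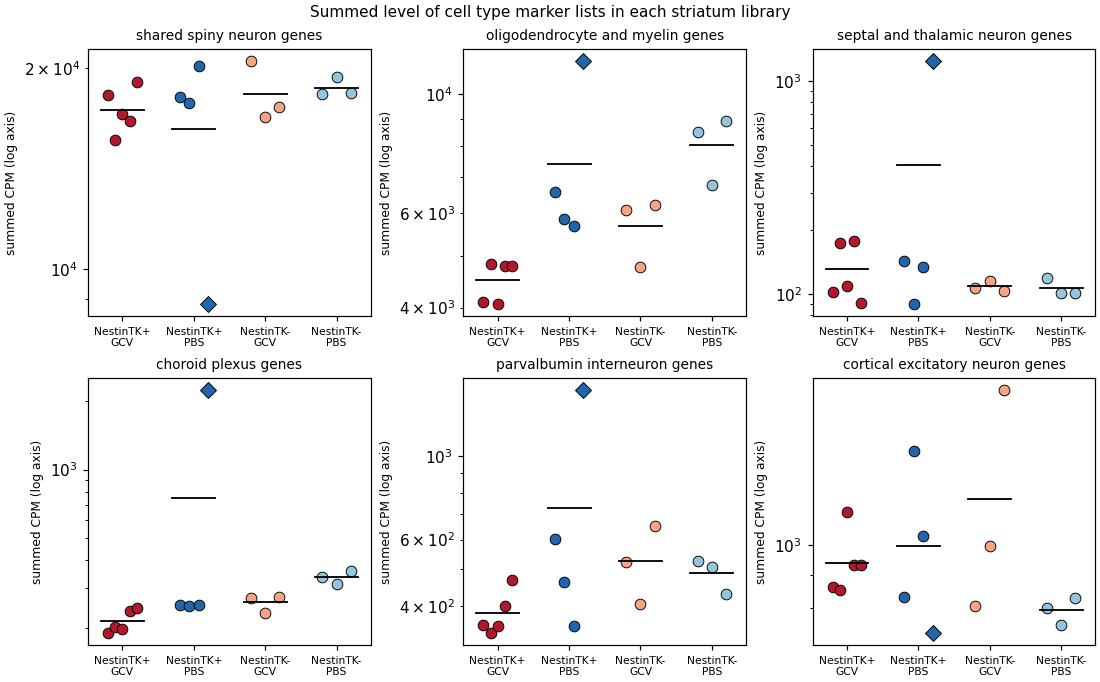
Summed CPM (log scale) of marker lists in each striatum library, by group, with a bar at the group mean and a diamond for NestinTK+PBS+ replicate 4. That library lies far above all others for septal and thalamic (1239 CPM) and choroid plexus markers (2239 CPM) and below all others for shared MSN markers (8856 CPM).

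Of 50508 genes in the table, 14779 had more than 1 CPM in at least 3 of the 9 libraries and were tested. With GCV 106 genes rose (0.717% of those tested) and 83 fell (0.562%) at the thresholds of the study, an unadjusted p of at most 0.01 with at least a 2-fold change, by edgeR's quasi-likelihood test. With no fold minimum, 235 genes were higher (1.59%) and 248 lower (1.68%) at the same p. At a Benjamini-Hochberg adjusted p under 0.05, 10 genes were higher and 0 lower (0.0677% together). At an unadjusted p under 0.05, 686 genes were higher and 784 lower. By the other tools run, limma-voom gave 14 higher and 0 lower genes and DESeq2 65 higher and 41 lower at that adjusted threshold. The 5 GCV libraries all lay above the 4 PBS libraries for 285 genes (1.93%) and below them for 240 (1.62%), and when CPM was computed from library totals alone these counts were 388 and 133. With counts thinned to the depth of the smallest library 113 genes were called higher and 81 lower, and with Gm42418 left out these counts were 109 and 83.

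The lower genes depended on 1 library. Without NestinTK+PBS+ replicate 4, 14554 genes were tested, of which 110 rose (0.756%) and 19 fell (0.131%). The higher genes called in both fits numbered 79, which is 74.5% of the first list and 71.8% of the second, whereas the lower genes called in both numbered 10, or 12.0% of the first list and 52.6% of the second. With no fold minimum the fit without this library gave 252 higher (1.73%) and 210 lower genes (1.44%) at a p of at most 0.01. Its adjusted p was under 0.05 for 25 higher and 14 lower genes (0.268% together). When each of the 9 libraries was left out in turn, 43 of the higher and 5 of the lower genes were called every time.

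**Figure D2:**
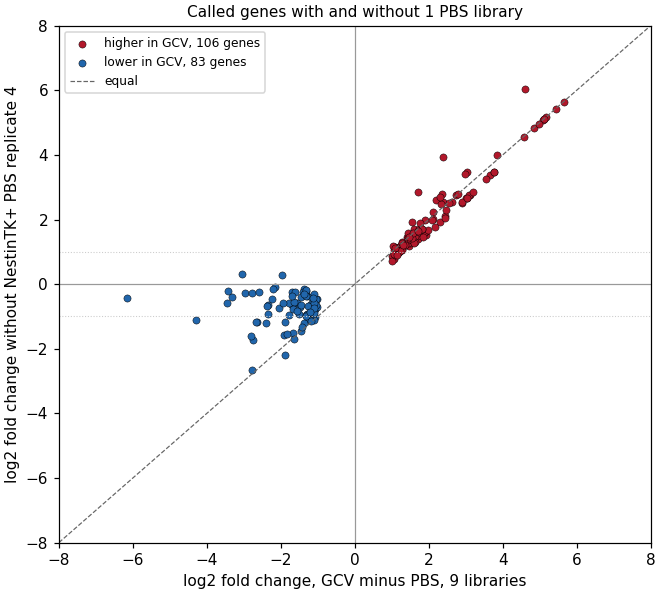
Log2 fold change (GCV minus PBS) of the called genes in NestinTK+ striatum with all 9 libraries (x axis) and without NestinTK+PBS+ replicate 4 (y axis), 1 point per gene. The 106 higher genes lie near the diagonal, while many of the 83 lower genes move towards 0 on the y axis.

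Long nuclear noncoding RNAs were among the higher genes with the lowest p. Malat1 (chr19:5795690-5802672, minus strand, GRCm38), an abundant RNA of nuclear speckles, was at 8577, 9340, 9591, 8982 and 7117 CPM in the GCV libraries and at 3070, 4879, 3490 and 2688 CPM in the PBS libraries. The lowest GCV library was thus well above the highest PBS library. The log2 fold change was 1.30 ± 0.16 (SE, n = 5 and 4), with an adjusted p of 0.00349 by edgeR. Meg3 (chr12:109541001-109571726, plus strand), the maternally expressed RNA of the Dlk1-Dio3 region, was at 8496, 8597, 8537, 7344 and 9413 CPM with GCV and at 2710, 5348, 2880 and 2372 CPM with PBS. PBS replicate 2 was the highest of its group for both RNAs without reaching the GCV libraries. For Meg3 the log2 fold change was 1.35 ± 0.19 (SE) with an adjusted p of 0.00756 by edgeR. Together these RNAs took 1.61% to 1.84% of all counts in the GCV libraries and 0.522% to 0.980% in the PBS libraries.

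Kcnq1ot1 (chr7:143203458-143296549, minus strand), the paternally expressed antisense RNA that silences genes around Kcnq1, was at 40.8, 58.0, 46.0, 56.6 and 33.0 CPM with GCV and at 15.6, 19.5, 22.6 and 19.1 CPM with PBS. These groups did not overlap either, and the log2 fold change was 1.28 ± 0.20 (SE, adjusted p = 0.00901, edgeR). Snhg11, a host of small nucleolar RNAs, was at 1700 to 2403 CPM with GCV and at 744 to 1635 CPM with PBS, where replicate 2 alone exceeded 764 CPM. Its log2 fold change of 1.08 ± 0.21 (SE) had an adjusted p of 0.0614 by edgeR, and it missed the 2-fold threshold without NestinTK+PBS+ replicate 1, 3 or 4 (log2 0.98, 0.97 and 0.98). In the list of 22 tested nuclear and long noncoding RNAs, 21 had a value above 0 and 6 were called higher, against 0.717% of all genes tested (Meg3, Rian, Mirg, Malat1, Kcnq1ot1 and Snhg11). The list's median log2 fold change was 0.30, against 0.00 over all genes tested. Without NestinTK+PBS+ replicate 4 the median was 0.38 and 4 genes were called. Neat1, the RNA that builds paraspeckles and lies next to Malat1 on the chromosome, had a log2 fold change of 0.05 (adjusted p = 0.968, edgeR), and Xist, which coats the inactive X chromosome, had one of 0.32 (adjusted p = 0.450, edgeR).

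**Figure D3:**
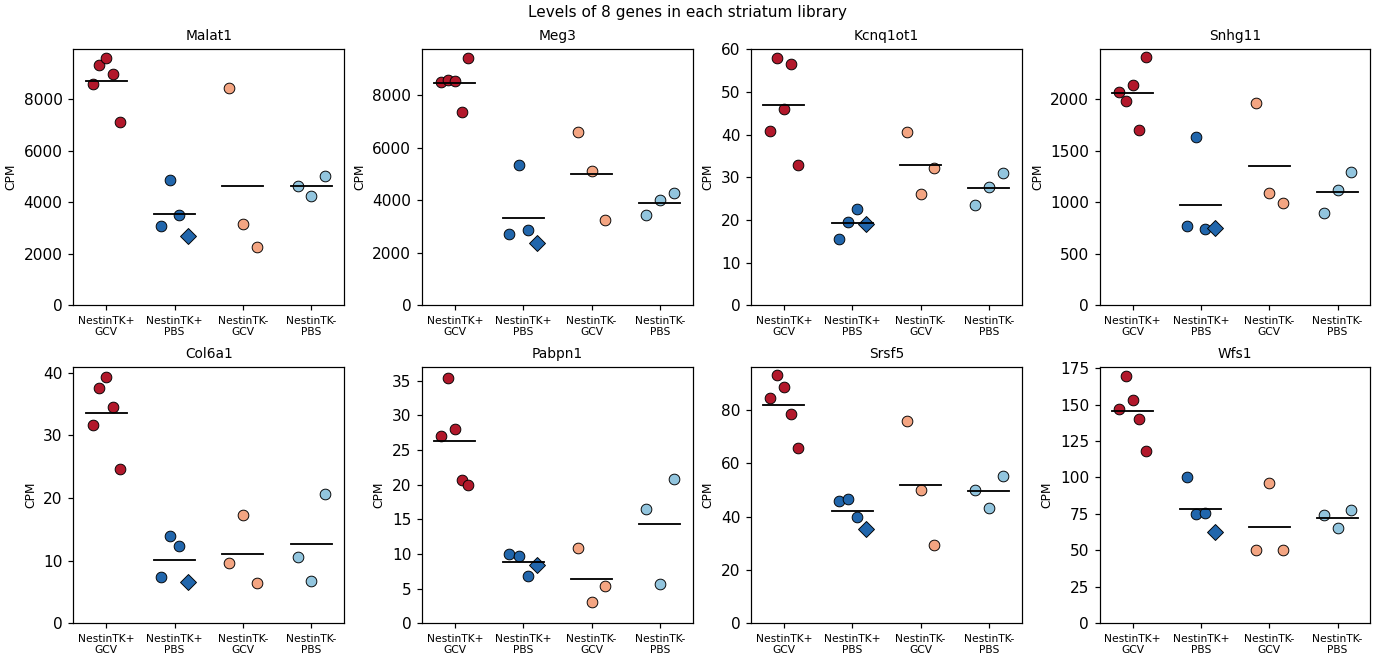
CPM (linear scale) of named genes in each striatum library, by group, with a bar at the group mean and a diamond for NestinTK+PBS+ replicate 4. For Malat1 the 5 NestinTK+GCV+ libraries sit between 7117 and 9591 CPM, above the 4 NestinTK+PBS+ libraries at 2688 to 4879 CPM, and NestinTK-GCV+ replicate 1 is at 8448 CPM.

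The promoters of 3 of these RNAs and of Dlk1 are shown because they belong to RNAs that moved together. Each of the windows shown holds the cAMP response element (CRE) or its shorter core. Those of Snhg11, Rian and Mirg, also called higher, are not shown, so the display is a selection. Each window runs from 250 bases before to 50 after the start given by RefSeq (GRCm38.p6), on the strand of the gene, at chr12:109540746-109541045 (plus) for Meg3, chr12:109452573-109452872 (plus) for Dlk1, chr19:5802623-5802922 (minus) for Malat1 and chr7:143296498-143296797 (minus) for Kcnq1ot1. Capitals mark TGACGTCA, the full CRE, in Meg3, and the core TGACG or its complement CGTCA in the others.
Meg3: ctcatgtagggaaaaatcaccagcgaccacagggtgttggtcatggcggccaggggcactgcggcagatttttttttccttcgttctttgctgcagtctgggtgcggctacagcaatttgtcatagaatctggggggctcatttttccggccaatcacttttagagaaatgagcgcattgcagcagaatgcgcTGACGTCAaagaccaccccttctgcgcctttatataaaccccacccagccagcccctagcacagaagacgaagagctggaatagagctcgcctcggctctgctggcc
Dlk1: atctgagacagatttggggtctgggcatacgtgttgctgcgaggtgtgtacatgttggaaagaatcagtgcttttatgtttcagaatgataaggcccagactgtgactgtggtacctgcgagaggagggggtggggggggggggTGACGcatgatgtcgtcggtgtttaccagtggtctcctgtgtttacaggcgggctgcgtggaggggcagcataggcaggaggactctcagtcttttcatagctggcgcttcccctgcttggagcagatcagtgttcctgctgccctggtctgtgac
Malat1: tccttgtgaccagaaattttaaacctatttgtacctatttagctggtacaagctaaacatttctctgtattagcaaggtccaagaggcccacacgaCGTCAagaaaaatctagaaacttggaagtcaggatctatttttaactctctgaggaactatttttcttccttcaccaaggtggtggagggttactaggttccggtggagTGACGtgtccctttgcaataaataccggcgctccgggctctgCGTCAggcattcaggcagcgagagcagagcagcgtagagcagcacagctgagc
Kcnq1ot1: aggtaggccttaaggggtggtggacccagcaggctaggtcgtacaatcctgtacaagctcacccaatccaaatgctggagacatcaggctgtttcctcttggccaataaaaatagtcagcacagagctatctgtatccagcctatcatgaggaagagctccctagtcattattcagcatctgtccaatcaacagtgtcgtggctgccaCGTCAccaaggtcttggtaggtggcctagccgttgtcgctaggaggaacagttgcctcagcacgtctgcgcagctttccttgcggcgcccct
The full element starts 57 bases before the start of Meg3. On either strand TGACGTCA was held by 1.79% of the 32851 promoter windows in the RefSeq table. A gene can have several windows there, and 3.67% of the 10636 tested genes in the table held it in at least 1 of them, as did 2 of 40 genes called higher (5.00%) and 0 of 63 called lower. The core TGACG, which every full element includes, was held by 20.8% of all windows, and by 35.1% of tested genes, 35.0% of genes called higher and 22.2% of genes called lower. A match describes the letters of the window only.

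In the imprinted Dlk1-Dio3 region of chromosome 12, an 828 kb window, the called genes were Dlk1, Meg3, Rian, Gm37899, B830012L14Rik and Mirg, which all rose with GCV and start within 277 kb of Dlk1. Beyond Mirg the 1 gene tested was Dio3. The region was singled out after the values of Meg3, Rian, Mirg and Dlk1 were seen, so its counts are a description. Of 116 annotated genes 10 were tested, all 10 had a value above 0, 6 were called higher (against 0.717% of all genes tested) and 2 (Meg3 and Gm37899) had an adjusted p under 0.05 by edgeR, with a median log2 fold change of 1.15. Dlk1 (chr12:109452823-109463336, plus strand), a transmembrane protein of the Notch ligand family that is expressed from the paternal chromosome, was at 66.7, 89.3, 55.0, 53.7 and 44.3 CPM with GCV and at 42.0, 25.5, 21.8 and 23.2 CPM with PBS. The groups did not overlap, though the lowest GCV and the highest PBS library were close, and the log2 fold change was 1.13 ± 0.22 (SE, adjusted p = 0.0738, edgeR).

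Rian, the maternally expressed host of C/D small nucleolar RNAs, was at 58.6 to 87.1 CPM with GCV and at 16.4 to 56.7 CPM with PBS (log2 1.17 ± 0.25 SE, adjusted p = 0.0888, edgeR), and its call was lost without NestinTK+PBS+ replicate 4 (0.95). Mirg, the host of a microRNA cluster, was at 85.9, 81.7, 95.0, 61.7 and 104 CPM with GCV and at 44.4, 81.4, 33.2 and 13.1 CPM with PBS. Its groups overlapped at PBS replicate 2, and its log2 fold change was 1.01 ± 0.32 (SE, adjusted p = 0.247, edgeR), a call lost in 6 of the 9 fits that left out 1 library. Gm37899, an unspliced transcript between Rian and Mirg, rose by a log2 fold change of 1.56 ± 0.28 (SE, adjusted p = 0.0406, edgeR), and B830012L14Rik, beside it, rose by 2.18 ± 0.57 (SE, adjusted p = 0.163, edgeR) from 0 to 2.25 CPM with PBS to 4.02 to 8.52 CPM with GCV. Dio3, the deiodinase at the far end that inactivates thyroid hormone, was at or below 3.65 CPM in every library, with a log2 fold change of 1.02 (adjusted p = 0.707, edgeR). Without NestinTK+PBS+ replicate 4 the region's median was 1.01 and 4 genes were called. In NestinTK- mice it was 0.37, with 8 of the 10 genes above 0. The difference between the genotypes had a median log2 value of 0.90 over the 10 genes, and 0 of them had an adjusted p under 0.05 by edgeR, which was 0.110 for Meg3 and 0.187 for Rian.

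**Figure D4:**
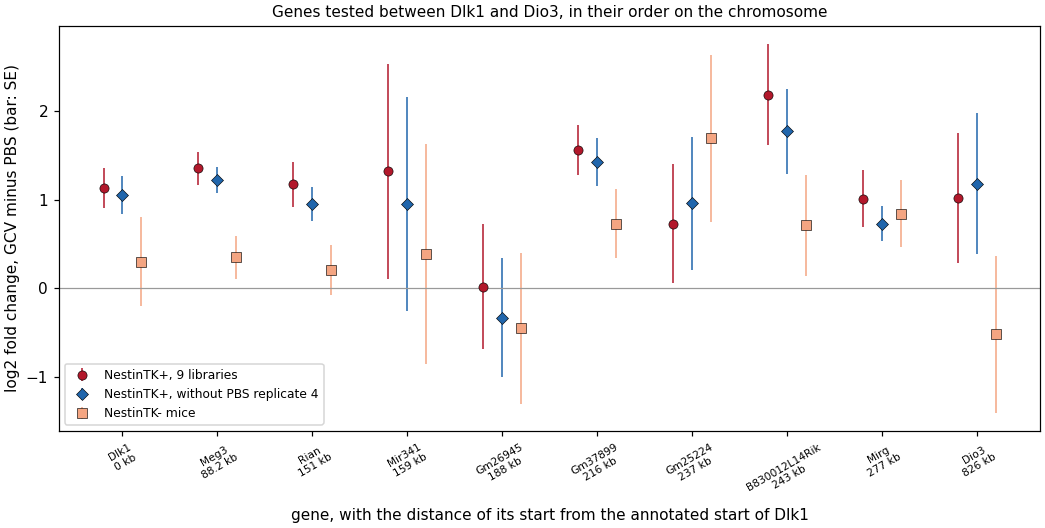
Log2 fold change (GCV minus PBS, with SE bars) of the 10 tested genes between Dlk1 and Dio3, in chromosomal order with the distance of each start from that of Dlk1 in kb. NestinTK+ values (circles, and diamonds without PBS replicate 4) lie between 0.73 and 1.35 for Dlk1, Meg3, Rian and Mirg, and NestinTK- values (squares) are 0.30, 0.35, 0.21 and 0.84. The square lies below the circle for each of these, and below the diamond for all but Mirg.

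Leaving out Gm42418, noncoding genes held 2.53% to 2.84% of the counts of the GCV libraries and 1.25% to 1.83% of those of the PBS libraries, without overlap. Malat1 and Meg3 made up most of this difference, and without them the shares were 0.921% to 1.000% with GCV and 0.708% to 0.853% with PBS, still without overlap. With Gm42418 kept in, the share of the tested long noncoding genes ran the other way, at 6.60% to 8.36% with GCV and 7.65% to 11.6% with PBS, with overlap. Among the 789 tested long noncoding genes the median log2 fold change was 0.30. Of these 28 were called higher and 0 lower, against 0.717% and 0.562% of all genes tested. At an edgeR p of at most 0.01 with no fold minimum, 40 were higher and 3 lower, against 1.59% and 1.68%. Among 445 tested genes of the TEC type, which are annotated from polyadenylated sequence and await experimental checks, the median was 0.78, with 36 called higher and 1 lower. For 12946 protein-coding genes the median was -0.02, with 33 called higher and 81 lower. Higher calls were therefore mostly noncoding and lower calls mostly coding, where most of the 14779 genes tested were coding. Snhg11, listed above with the noncoding RNAs, has the protein-coding type in the annotation and counts as coding here. Without NestinTK+PBS+ replicate 4 the medians were 0.27 and 0.81 for the long noncoding and TEC genes, with 25 and 33 called higher. In that fit 42 coding genes were called higher and 18 lower, against 0.756% and 0.131% of all genes tested.

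Many TEC and long noncoding genes lie inside protein-coding genes. Of those contained in a protein-coding gene on the same strand, 392 were tested, 322 had a value above 0, and the median log2 fold change was 0.88. Of these 34 were called higher and 0 lower, against 0.717% and 0.562% of all genes tested. At an edgeR p of at most 0.01, 35 were higher and 0 lower, against 1.59% and 1.68%. The coding genes that contain them did not move alike. Of 248 tested host genes the median was 0.03 and 0 were called higher, and over the 28 tested hosts of the called transcripts the median was 0.06, with 0 passing an edgeR p of at most 0.01. Levels were low. The inner transcripts took 0.127% to 0.150% of the counts with GCV and 0.0731% to 0.122% with PBS, and 32 of them averaged at least 5 CPM, of which 30 were above 0 and 11 were called. In 3 of the 392 all libraries of a group were at 0, and setting these to their bound at 3 counts left the median at 0.88. A read primed within an intron of the host's unspliced RNA and a read of the annotated inner transcript cannot be told apart in these counts. In NestinTK- mice the median of the same genes was 0.35.

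Gm10115, an intronic transcript of Celf2 (chr2:6950453-6951680, minus strand), had the largest change of the 8 higher genes that were named by fold. It was at 11.4, 14.9, 18.7, 17.5 and 15.7 CPM with GCV and at 1.32, 5.63, 4.18 and 0.546 CPM with PBS. Every GCV library was at least 2 times as high as any PBS library, with a log2 fold change of 2.45 ± 0.42 (SE, adjusted p = 0.0236, edgeR). Celf2, an RNA-binding regulator of splicing that contains it, had a log2 fold change of 0.23 (adjusted p = 0.561, edgeR). Likewise 2900022M07Rik inside Adgrb3 rose by 1.70 ± 0.48 (SE) from 0.793 to 9.38 CPM with PBS to 11.0 to 20.1 CPM with GCV, whereas Adgrb3, an adhesion receptor of synapses, had a value of 0.14 (adjusted p = 0.883, edgeR). Gm37274 inside Cpne1 and Gm38077, which shares exon sequence with its host Mrpl3, rose by 2.21 ± 0.47 and 1.59 ± 0.40 (SE). C130023A14Rik, which overlaps the microRNA gene Mir125b-2, rose by 1.70 ± 0.39, and A230057D06Rik by 1.58 ± 0.38 (SE). Dlg2, which encodes the postsynaptic scaffold PSD-93, contained 5 called transcripts and had a log2 fold change of 0.19 itself (adjusted p = 0.766, edgeR).

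Col6a1 and Pabpn1 were among the coding genes called in all 9 fits that left out 1 library. Others included Nts, Cartpt, Col11a1, Adamts10, Cplx3 and Pvalb, described below. Col6a1 (chr10:76708792-76726168, minus strand), the alpha 1 chain of the collagen VI microfibrils of the extracellular matrix, was at 31.6, 37.6, 39.3, 34.5 and 24.7 CPM with GCV and at 7.40, 13.9, 12.3 and 6.55 CPM with PBS. The groups were far apart, with a log2 fold change of 1.75 ± 0.24 (SE, adjusted p = 0.00668, edgeR), or 3.35-fold. Pabpn1 (chr14:54892500-54898169, plus strand), the nuclear protein that binds poly(A) tails and sets their length, was at 27.0, 35.4, 28.1, 20.7 and 20.0 CPM with GCV and at 10.0, 9.76, 6.81 and 8.46 CPM with PBS. The lowest GCV library was close to 2 times the highest PBS library, and the log2 fold change was 1.58 ± 0.23 (SE, adjusted p = 0.00756, edgeR). Reads of Pabpn1 may be shared with Gm20521, a readthrough gene that has exon sequence in common with it.

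Of the 10 genes with an adjusted p under 0.05, Malat1, Meg3, Col6a1 and Pabpn1 stayed under it in all 9 fits that left out 1 library. Their adjusted p in those fits, by edgeR, ran from 3.45e-06 to 0.0370, from 1.77e-05 to 0.0430, from 5.34e-04 to 0.0410 and from 0.00212 to 0.0430. Srsf5 stayed under it in 7 fits, Kcnq1ot1 in 6, Wfs1 in 5, Pnisr in 4, Gm10115 in 3 and Gm37899 in 2.

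The matrix genes as a list changed much less than Col6a1. Of 55 tested collagens and matrix glycoproteins 35 had a value above 0, with a median of 0.14. Col6a1 and Col11a1 were called higher, against 0.717% of all genes tested. At an edgeR p of at most 0.01, 3 were higher and 0 lower, against 1.59% and 1.68%. Col11a1, a chain of the fibrillar collagen XI, was at 10.6, 13.9, 12.3, 7.75 and 7.67 CPM with GCV and at 4.76, 4.50, 3.74 and 2.45 CPM with PBS (log2 1.43 ± 0.33 SE, adjusted p = 0.119, edgeR). Its groups did not overlap. Thbs3, a thrombospondin, was higher by 0.80 ± 0.24 (SE, adjusted p = 0.221, edgeR) without reaching 2-fold. Col6a2 and Col6a3, other chains of collagen VI, were not called (log2 0.17 ± 0.61 and 0.61 ± 0.34 SE, adjusted p = 0.963 and 0.590, edgeR). Among 29 ADAMTS, MMP and TIMP genes Adamts10, a protease of fibrillin microfibrils, rose by 2.30 ± 0.64 (SE, adjusted p = 0.192, edgeR) from 0.220 to 1.09 CPM to 2.13 to 4.67 CPM, and Adamts1, which cleaves proteoglycans, fell by 1.10 (adjusted p = 0.184, edgeR). The call of Adamts1 was lost without NestinTK+PBS+ replicate 4 (log2 -0.83).

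Splicing and chromatin regulators were a little higher as a list. Of 50 tested, 41 had a value above 0, with a median of 0.12, and 7 were higher and 0 lower at an edgeR p of at most 0.01, against 1.59% and 1.68% of all genes tested. Without NestinTK+PBS+ replicate 4 the counts were 35 above 0 and 10 higher at that p (against 1.73%), with a median of 0.11. Srsf5, a splicing factor of the SR family, was at 84.5, 93.0, 88.6, 78.4 and 65.7 CPM with GCV and at 46.0, 46.5, 39.8 and 35.5 CPM with PBS, which did not overlap (log2 0.97 ± 0.15 SE, adjusted p = 0.00901, edgeR). Pnisr, a nuclear protein with an SR domain, was higher by 0.82 ± 0.14 (SE, adjusted p = 0.0236, edgeR), at 259 to 358 CPM with GCV and 149 to 207 CPM with PBS. Luc7l3 and Srsf1, both splicing factors, were higher by 0.39 ± 0.11 and 0.38 ± 0.12 (SE, adjusted p = 0.221 and 0.247, edgeR), with no overlap between groups in either.

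Nts and Cartpt, both precursors of neuropeptides, were called higher, while Cck, the cholecystokinin precursor, was called lower (log2 -1.51 ± 0.46 SE, adjusted p = 0.230, edgeR) and had a value of -0.92 without NestinTK+PBS+ replicate 4. Penk and Tac1, the enkephalin and substance P precursors of MSNs, had values of 0.22 and 0.21 (adjusted p = 0.765 and 0.812, edgeR). Nts, which encodes neurotensin, was at 11.7, 21.5, 25.1, 23.5 and 6.33 CPM with GCV and at 5.28, 4.13, 4.84 and 6.27 CPM with PBS. GCV replicate 5 was barely above the highest PBS library and the other 4 GCV libraries were clearly higher, with a log2 fold change of 1.77 ± 0.35 (SE, adjusted p = 0.0791, edgeR). Cartpt, which encodes the CART peptide, was at 8.87, 42.7, 36.7, 17.8 and 7.00 CPM with GCV and at 8.72, 9.38, 3.08 and 4.91 CPM with PBS. GCV replicates 1 and 5 lay within the PBS range, and the log2 fold change of 1.82 ± 0.47 (SE) had an adjusted p of 0.163 by edgeR. Pdyn, the dynorphin precursor of direct-pathway MSNs, was at 202 to 294 CPM with GCV and at 54.0 to 171 CPM with PBS, with a log2 fold change of 0.85 ± 0.23 (SE, adjusted p = 0.184, edgeR) that stayed below 2-fold and was 0.59 (adjusted p = 0.0421, edgeR) without NestinTK+PBS+ replicate 4. Sult1a1, a sulfotransferase, rose by 1.28 ± 0.37 (SE, adjusted p = 0.213, edgeR), a call lost without GCV replicate 2.

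Oligodendrocyte and myelin genes were lower with GCV as a group. All 37 list members were tested and all 37 had a value below 0, with a median log2 fold change of -0.74. At an edgeR p of at most 0.01 there were 25 lower genes, against 1.68% of all genes tested, and 16 genes did not overlap between groups, against 1.62%. Myrf, Enpp2 and Anln were called lower, passing both that p and 2-fold, against 0.562% of all genes tested, and 0 had an adjusted p under 0.05. Enpp2 is also a marker of choroid plexus and was at 654 CPM in PBS replicate 4, against 185 to 196 CPM in the other 3 PBS libraries. The list summed to 4097, 4831, 4060, 4781 and 4780 CPM in the GCV libraries and to 6580, 5841, 5672 and 11544 CPM in the PBS libraries. The high value was that of replicate 4, and the GCV libraries were below the other 3 PBS libraries as well. Without replicate 4 the median was -0.45, 36 of 37 genes were below 0, 17 were lower at a p of at most 0.01 (against 1.44% of all genes tested), and Trf and Mag had an adjusted p under 0.05 by edgeR. In bulk tissue, fewer oligodendrocytes and less RNA per oligodendrocyte cannot be told apart.

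Trf, the transferrin that oligodendrocytes secrete, was at 267, 252, 224, 270 and 373 CPM with GCV and at 476, 527, 372 and 728 CPM with PBS. Its groups met at 373 and 372 CPM, and its log2 fold change was -0.92 ± 0.18 (SE, adjusted p = 0.0614, edgeR), or -0.72 ± 0.14 (SE, adjusted p = 0.0104, edgeR) without replicate 4. Myrf, the transcription factor that drives myelination, was at 11.7, 15.3, 9.35, 16.1 and 10.0 CPM with GCV and at 24.0, 23.6, 21.8 and 37.4 CPM with PBS. These did not overlap, and the log2 fold change was -1.09 ± 0.23 (SE, adjusted p = 0.0888, edgeR). Mag, the myelin-associated glycoprotein, had a value of -0.90 ± 0.19 (SE, adjusted p = 0.0931, edgeR) and Mog, a glycoprotein of the outer myelin surface, one of -0.85 ± 0.19 (SE, adjusted p = 0.107, edgeR). Mbp, the myelin basic protein, was at 520 to 668 CPM with GCV and at 754 to 1548 CPM with PBS. Anln, an actin-binding protein of myelin septin filaments, fell by 1.13 on the log2 scale with all 9 libraries and its call was lost without replicate 4, as were those of Myrf and Enpp2. Anln and Myrf also lost it without GCV replicate 3.

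The same genes were lower with GCV in mice without the transgene. In NestinTK- mice all 37 had a value below 0 with a median of -0.43, and 8 were lower at an edgeR p of at most 0.01, against 4.78% of all genes tested in this comparison. The list summed to 4755 to 6227 CPM in the 3 NestinTK-GCV+ libraries and to 6769 to 8903 CPM in the 3 NestinTK-PBS+ libraries, which share no library with the NestinTK+ comparison. Mog was at 43.6, 34.6 and 51.7 CPM with GCV and at 95.9, 69.0 and 87.0 CPM with PBS in these mice (log2 -0.95 ± 0.22 SE, adjusted p = 0.0282, edgeR). The difference between genotypes had a median of -0.29 over the 37 genes, 25 below 0, and 0 genes passed an edgeR p of at most 0.01 for it. Mag differed between the groups of NestinTK+ mice but had a value of -0.11 ± 0.22 (SE) in NestinTK- mice, with an adjusted p of 0.174 for the difference by edgeR. The 20 genes of oligodendrocyte precursors had a median of -0.17 in NestinTK+ mice, with 15 below 0 and 0 passing an edgeR p of at most 0.01.

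**Figure D5:**
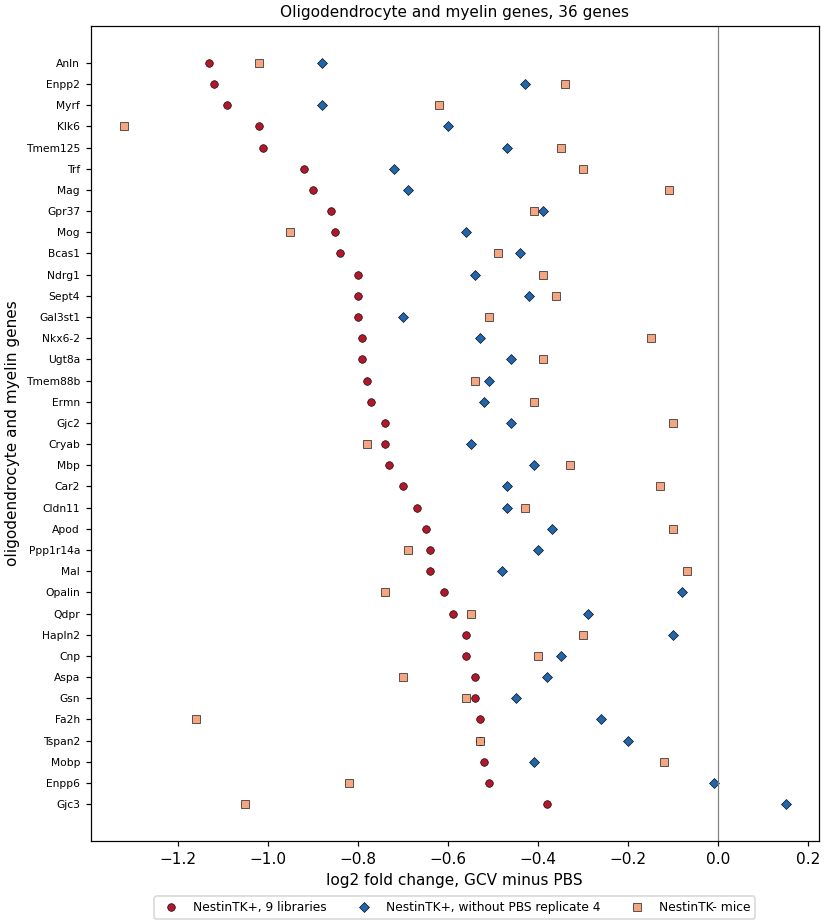
Log2 fold change (GCV minus PBS) of 36 oligodendrocyte and myelin genes in NestinTK+ mice with all 9 libraries (circles), without PBS replicate 4 (diamonds) and in NestinTK- mice (squares). Every circle and every square lies below 0, and 35 of the 36 diamonds do, and each diamond is closer to 0 than the circle of its gene.

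Other genes with the lowest p among the lower ones were Kcnj10, Sema7a, Lpar1 and Cxxc5. Kcnj10, the inward-rectifier potassium channel Kir4.1 of astrocytes and oligodendrocytes, was at 37.3, 34.6, 29.9, 46.2 and 39.3 CPM with GCV and at 64.2, 56.3, 70.8 and 124 CPM with PBS. The groups did not overlap, and the log2 fold change was -1.07 ± 0.21 (SE, adjusted p = 0.0614, edgeR), or -0.76 ± 0.16 (SE, adjusted p = 0.0260, edgeR) without replicate 4, and it was below 2-fold without that library or without GCV replicate 3 (-0.99). Sema7a, a membrane-anchored semaphorin, and Lpar1, a receptor for lysophosphatidic acid, had values of -0.81 ± 0.17 and -0.71 ± 0.15 (SE, adjusted p = 0.0865 and 0.0886, edgeR). Cxxc5, a zinc-finger regulator of Wnt signalling, was at 35.0 to 50.9 CPM with GCV and 60.7 to 131 CPM with PBS, or 0.501 times as high with GCV (adjusted p = 0.0888, edgeR). Each of these genes was lower in all 5 GCV libraries than in all 4 PBS libraries. Lpar1 was lower in NestinTK- mice too, by -0.60 ± 0.16 (SE, adjusted p = 0.0498, edgeR).

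Of the called lower genes whose groups did not overlap and whose mean was at least 5 CPM, Cplx3, a complexin of transmitter release, changed most, from 5.55, 10.5, 5.72 and 24.5 CPM with PBS to 2.48, 1.82, 4.11, 3.73 and 3.33 CPM with GCV (log2 -1.88 ± 0.44 SE, adjusted p = 0.121, edgeR). Its call held in all 9 fits that left out 1 library, with a log2 fold change of -1.18 without replicate 4. Rgs6, a regulator of G-protein signalling, Mast1, a microtubule-associated kinase, and Sdk2, a synaptic adhesion protein, fell by 1.31, 1.30 and 1.26 and lost the call without replicate 4, where the values were -0.97, -0.92 and -1.08. Nsdhl, an enzyme of cholesterol synthesis, was at 2.24 to 6.89 CPM with GCV and at 8.79 to 12.9 CPM with PBS and fell by 1.19 (adjusted p = 0.184, edgeR), or by 1.13 without replicate 4, a call that was lost without GCV replicate 3. Of 24 tested genes of cholesterol synthesis 20 were below 0, with a median of -0.22, and Nsdhl was the 1 that passed an edgeR p of at most 0.01. Rassf4, a Ras-association protein, fell by 1.18 with all libraries and had a value of -0.62 (adjusted p = 0.688, edgeR) without replicate 4.

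Several lower calls came with the levels of NestinTK+PBS+ replicate 4. Slc17a6, the glutamate transporter VGLUT2 of thalamic neurons, was at 0 to 21.8 CPM with GCV and at 11.6, 1.88, 3.96 and 232 CPM with PBS. It was called lower (log2 -3.04) but had a value of 0.33 without that library. Ttr, the transthyretin of choroid plexus, went from -6.15 to -0.44 and Prkcd, a protein kinase C abundant in thalamus, from -3.43 to -0.21 in the same way. The 11 septal and thalamic markers had a median of -1.27 with and -0.02 without this library, the 12 choroid plexus markers -1.04 and 0.20, and the 13 markers of parvalbumin interneurons -0.65 and -0.21. Pvalb, the calcium-binding protein of fast-spiking interneurons, was at 25.6, 13.1, 29.5, 49.4 and 35.0 CPM with GCV and at 122, 46.5, 41.3 and 574 CPM with PBS. GCV replicate 4 lay above PBS replicates 2 and 3, and the gene was called in all 9 fits that left out 1 library, at -2.67 ± 0.57 (SE) with all libraries and -1.18 ± 0.28 (SE, adjusted p = 0.0691, edgeR) without replicate 4. Vamp1 and Kcnc2, also expressed in fast-spiking cells, went from -1.62 to -0.25 and from -1.70 to -0.37. Gfap, the intermediate filament of astrocytes, was called lower (-1.55) and had a value of -0.83 without replicate 4.

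Lists of MSN markers had medians near 0 with all 9 libraries, and lower ones without NestinTK+PBS+ replicate 4. The 25 shared MSN markers had a median of 0.11, and -0.08 without NestinTK+PBS+ replicate 4, and summed to 15623 to 19081 CPM with GCV against 17724 to 20118 CPM in the other 3 PBS libraries. Wfs1, a protein of the endoplasmic reticulum, was the member with an adjusted p under 0.05. It was at 147, 170, 153, 140 and 118 CPM with GCV and at 100, 74.7, 75.4 and 62.5 CPM with PBS, without overlap (log2 0.90 ± 0.15 SE, adjusted p = 0.0236, edgeR). Without replicate 4, in which these markers were low, 20 of the 25 were below 0, with 1 higher and 3 lower at an edgeR p of at most 0.01 (against 1.73% and 1.44% of all genes tested). The 9 direct-pathway markers had a median of 0.10 with and 0.08 without this library, and the 8 indirect-pathway markers one of -0.04 with and -0.19 without it. Adora2a, an adenosine receptor of indirect-pathway MSNs, was at 785, 840, 840, 731 and 1010 CPM with GCV and at 1271, 1317, 1065 and 444 CPM with PBS, with a log2 value of -0.28 ± 0.22 (SE, adjusted p = 0.733, edgeR) with all 9 libraries and -0.53 ± 0.11 (SE, adjusted p = 0.0340, edgeR) without replicate 4. Its GCV libraries were below the other 3 PBS libraries. Drd1, the D1 dopamine receptor, had a value of 0.01 ± 0.20 (SE) with and -0.21 ± 0.11 (SE) without replicate 4, and Penk values of 0.22 ± 0.19 and 0.01.

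Insulin-like growth factor (IGF) signalling is of interest because SVZ precursors secrete binding proteins of this axis. Igf1r, the receptor, was at 82.3, 80.6, 81.2, 67.2 and 75.7 CPM with GCV and at 73.7, 75.8, 74.3 and 112 CPM with PBS. The groups overlapped, with a difference of -0.10 in mean log2 CPM (two-sided exact permutation p = 0.619). Igf1, the ligand, was at 2.13, 2.92, 3.37, 3.45 and 2.67 CPM with GCV and at 4.76, 3.38, 3.52 and 6.00 CPM with PBS, a difference of -0.58 (exact permutation p = 0.0317). For Igfbpl1, an IGF-binding protein of neuroblasts, the difference was -0.77 (exact permutation p = 0.143), with 2.84 to 9.84 CPM against 6.34 to 15.8 CPM. For Irs1, the adaptor of the receptor, it was -0.89 (exact permutation p = 0.111). After Benjamini-Hochberg adjustment over the 6 values tested in this way, the exact permutation p of Igf1r was 0.619 and that of the other values 0.171, where the smallest unadjusted p that 5 against 4 libraries allow is 0.0159. The other 2 values were total counts, lower with GCV by 0.35 on the log2 scale (exact permutation p = 0.0635), and the mitochondrial share, 0.78 percentage points higher (exact permutation p = 0.143).

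Of 16 tested IGF ligands, receptors and binding proteins 11 were below 0, with a median of -0.19, and Igfbp5, a binding protein held in the matrix, was the member that passed an edgeR p of at most 0.01. It was at 23.4, 37.6, 22.1, 32.7 and 27.7 CPM with GCV and at 44.9, 41.7, 40.0 and 62.5 CPM with PBS, a log2 fold change of -0.72 ± 0.19 (SE, adjusted p = 0.169, edgeR) with no overlap. Insr, the insulin receptor, had a value of -0.24 ± 0.19 (SE). The 58 tested genes of signalling below the receptor had a median of 0.02. Inhbb, an activin subunit, fell by 1.92 (adjusted p = 0.268, edgeR) from 1.54 to 5.18 CPM to 0.287 to 1.12 CPM, a call lost in 6 of the 9 fits that left out 1 library. Nfil3, a transcriptional repressor tied to the circadian clock, had a value of -1.26 ± 0.44 (SE, adjusted p = 0.307, edgeR) and Atf7, a CRE-binding factor, one of -0.91 ± 0.30 (SE, adjusted p = 0.279, edgeR).

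Dividing cells and neuroblasts are rare in striatum and their genes were low here. The 21 tested neuroblast genes had a median of -0.11 and the 22 tested genes of dividing cells one of -0.32. Cdk1, the mitotic kinase, was called lower in this list, at 0.365 to 1.77 CPM with GCV and 1.09 to 7.51 CPM with PBS (log2 -1.89 ± 0.65 SE, adjusted p = 0.295, edgeR), a call lost in 6 of the 9 fits that left out 1 library. For comparison, in the SVZ of the same 9 mice 124 of 15001 genes were called lower (0.827%) and 34 higher, with 0 at an adjusted p under 0.05 and 399 higher and 476 lower at an unadjusted p under 0.05 by edgeR. By limma-voom, 1 gene was under that adjusted threshold. The genes of dividing cells had a median log2 fold change of -2.12 there, with 25 of 27 below 0 and 2 called lower. Among them Top2a had a value of -4.11 ± 1.19 and Mki67 one of -0.03 ± 0.91 (SE). The neuroblast genes had a median of -0.35, with 18 of 22 below 0 and 6 called lower. Choroid plexus genes had an SVZ median of -5.01, with 9 of 16 called lower, or 0 by limma-voom. Enpp2, a member of that list, was at 9742 CPM in the SVZ of NestinTK+PBS+ replicate 1. In replicates 2, 3 and 4 of that group it was at 269, 211 and 122 CPM, and with GCV at 134 to 205 CPM. The part of single libraries in these SVZ values was not tested. Igfbpl1 was at 0 to 0.246 CPM with GCV and at 2.99 to 34.5 CPM with PBS in the SVZ. Malat1 and Meg3 had SVZ values of 0.93 ± 0.39 and 0.74 ± 0.34 (SE, adjusted p = 0.839 and 0.850, edgeR).

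In NestinTK- striatum, 377 of the same 14779 genes were called with GCV (2.55%), 102 higher and 275 lower. Malat1 was at 8448, 3165 and 2272 CPM in the NestinTK-GCV+ libraries and at 4633, 4228 and 5020 CPM in the NestinTK-PBS+ libraries, so that replicate 1 of the former was as high as NestinTK+GCV+ libraries and the other 2 were below every NestinTK-PBS+ library. The same replicate had the highest Meg3 of its group (6596 CPM) and a noncoding share of 2.35%, against 1.29% to 1.82% in the other 5 NestinTK- libraries. Its part in the NestinTK- values was not tested beyond leaving it out.

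The interaction of genotype and treatment had an adjusted p under 0.05 for 106 genes (0.717%) by edgeR. Among the 10 genes above, it was Pabpn1, which had a log2 fold change of -1.15 ± 0.41 (SE) in NestinTK- mice and a difference between genotypes of 2.75 ± 0.53 (SE, adjusted p = 0.0240, edgeR). For Malat1 the difference was 1.31 ± 0.39 (SE, adjusted p = 0.0954, edgeR), for Meg3 1.01 ± 0.31 (SE, adjusted p = 0.110, edgeR) and for Col6a1 1.94 ± 0.49 (SE, adjusted p = 0.0596, edgeR). Without NestinTK+PBS+ replicate 4, Pabpn1, Col6a1, Gm10115 and Wfs1 had an adjusted p under 0.05 for the difference (0.00647, 0.0350, 0.0364 and 0.0452, edgeR). The count of 106 rested on few libraries, since it was 0 without NestinTK-PBS+ replicate 3, 1 without NestinTK-PBS+ replicate 1 or NestinTK+PBS+ replicate 2, 482 without NestinTK+PBS+ replicate 4 and 555 without NestinTK-PBS+ replicate 2.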

How the data were processed

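Striatum RNA of 9 NestinTK+ mice was compared, with 6 NestinTK- striatum and 9 SVZ libraries beside it. Per the authors, striatum libraries were made with QuantSeq 3′ FWD and SVZ libraries with SMART-Seq v4, and single-end reads were sequenced. The submitters' processing notes name Trimmomatic (0.36), STAR (2.5.3a) and featureCounts, with the genome mm10 and Gencode annotation, and which strand was counted is not given in the sources used here. The authors deposited raw counts per gene, with no normalization. Groups came from the sample labels, and replicate numbers only name mice within a group.

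Counts were filtered at more than 1 CPM in at least 3 of the 9 libraries, scaled with TMM and tested with edgeR 4.0.16 quasi-likelihood functions (R 4.3.3), which pool the spread over genes. Calls required an unadjusted p of at most 0.01 and a 2-fold change or more. Benjamini-Hochberg adjustment ran over all genes tested. The SE is the log2 fold change divided by the square root of F. NestinTK- values and the interaction came from 1 fit of all 15 striatum libraries, and NestinTK- CPM values are on the scale of that fit. The SVZ was fitted alone. Single values were compared by exact permutation (scipy 1.17.1). limma-voom (3.58.1) and DESeq2 (1.42.0) were alternatives, with other scalings and filters, thinned counts and each library left out. The fits were tested on simulated data. An SE includes the spread between mice, whereas a bound set at 3 counts covers counting error only.

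Gene types and positions were taken from GENCODE vM21 (GRCm38) by symbol, which matched 1 entry for 97.6% of the tested symbols, and promoters from RefSeq (GRCm38.p6). Genes were named by rule: the 8 called genes per direction with the largest change among those with no overlap and a mean of at least 5 CPM, the 5 per direction with the lowest p, list members that were called or had an adjusted p under 0.05, up to 4 members per list with the lowest p, and genes of the study. The Dlk1-Dio3 region, the grouping of neuropeptide genes, the host genes, Neat1, Xist, Col6a2 and Col6a3 were chosen after their values were seen. The comparison, the 50 gene lists and the genes Inhbb, Nfil3 and Atf7 were chosen with earlier results of these data known. No list was tested as a set: lists are given by counts and medians. Of the oligodendrocyte list 1 gene is not reported here by itself.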

Additional observations from a re-analysis of the deposited data

Results flagged for a closer look

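In groups of 4 or 5 libraries, 21 of 148 group tests of the named genes had 1 library far from the others by Dixon's criterion, which chance gives in about 1 of 20. NestinTK+PBS+ replicate 4 accounted for 16 of them. It was the highest PBS library for Ttr (1381 CPM), Rora (692 CPM), Enpp2 (654 CPM), Pvalb (574 CPM), Tcf7l2 (346 CPM), Prkcd (272 CPM), Vamp1 (245 CPM), Slc17a6 (232 CPM), Cxxc5 (131 CPM), Igf1r (112 CPM), Myrf (37.4 CPM), Gfap (29.7 CPM), Mast1 (15.3 CPM) and Mbp (1548 CPM). It was the lowest for Drd1 (361 CPM) and Ppp1r1b (1278 CPM). The other 5 were the high values of Meg3 (5348 CPM) and Snhg11 (1635 CPM) in NestinTK+PBS+ replicate 2, the low value of Nsdhl (8.79 CPM) in NestinTK+PBS+ replicate 3, and the high values of C130023A14Rik (11.7 CPM) in NestinTK+GCV+ replicate 1 and of Kcnc2 (15.3 CPM) in NestinTK+GCV+ replicate 2.

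The effect of GCV differed between NestinTK+ and NestinTK- mice, by the interaction test at an adjusted p under 0.05 (edgeR), for Pabpn1 (log2 difference 2.75), Srsf1 (1.25), Cplx3 (-4.85) and Cck (-4.13). Srsf1 was at 94.4, 70.6 and 107 CPM in NestinTK-GCV+ and at 166, 127 and 200 CPM in NestinTK-PBS+ mice, with a log2 fold change of -0.85 there against 0.38 in NestinTK+ mice. Cplx3 and Cck, the cholecystokinin precursor of cortical and interneuronal cells, were highest in NestinTK-GCV+ replicate 3 (27.4 and 217 CPM), where markers of cortical excitatory neurons summed to 1730 CPM against 733 to 1394 CPM in the other 14 striatum libraries. The part of that library and of NestinTK+PBS+ replicate 4 in these differences was not tested beyond leaving them out.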

How the results depend on the processing

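The 106 higher calls stayed within 1.5 times under 11 other settings (88 to 148) and ranged from 85 to 160 with each library left out, the most without NestinTK+PBS+ replicate 2. The 83 lower calls became 29 with limma-voom, 42 with robust dispersion and 193 with no filter, and 19 to 143 with each library left out (19 without NestinTK+PBS+ replicate 4, 143 without NestinTK+PBS+ replicate 3, and 44, 55 and 46 without NestinTK+GCV+ replicates 1, 2 and 3). The 10 genes with an adjusted p under 0.05 became 106 with DESeq2, 355 with no filter, 20 with all 15 libraries and 17 with thinned counts, and 4 to 39 with each library left out (39 without NestinTK+PBS+ replicate 2 or 4, 25 without replicate 3, and 5, 4 and 5 without NestinTK+GCV+ replicates 1, 2 and 4). The NestinTK- count ran from 212 to 587 without NestinTK-GCV+ replicate 2 and NestinTK-PBS+ replicate 2, and the interaction count was 497 with DESeq2 and 0 to 555 with libraries left out, with 2, 13 and 28 without NestinTK+GCV+ replicates 1, 2 and 3. SVZ medians were -0.74 (neuroblast) and -3.23 (dividing) with limma-voom. With each library left out, values ran from -4.09 to 0.33 for Slc17a6, -0.17 to 0.06 for Igf1r, -0.21 to 0.12 for Drd1 and -0.08 to 0.20 for Ppp1r1b, and signs turned without NestinTK+PBS+ replicate 4 and, for Drd1, without NestinTK+GCV+ replicates 1 and 5 (-0.02 and -0.04). Of 45 called named genes, 23 kept their call and direction without NestinTK+PBS+ replicate 4, 32 with limma-voom and 35 with DESeq2. The causes were not tested. No paired analysis was possible because replicate numbers only name different mice in each group. Genes under a few CPM rest on few reads, 1 count being 0.381 CPM in the smallest library.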

Other observations

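Housekeeping lists moved little in NestinTK+ striatum. Of 85 tested cytosolic ribosomal protein genes 68 were above 0 with GCV, at a median log2 fold change of 0.12, while the median was -0.21 in NestinTK- mice. Of 74 nuclear genes of the respiratory chain 53 were below 0 (median -0.09), and of 9 tested mitochondrially encoded genes 8 were above 0 (median 0.24). In none of these lists was a gene called in NestinTK+ mice, and 1 ribosomal and 1 respiratory gene passed an edgeR p of at most 0.01. Microglial genes had a median of 0.00 over 24 genes and interferon response genes one of -0.13 over 24. Of 31 astrocyte genes 25 were below 0 (median -0.13), and Gfap was the 1 called. Of 31 proteoglycan genes 26 were below 0 (median -0.21), and of 55 immediate early genes 36 (median -0.10).

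Ependymal and motile cilia genes had a median of -0.08 over 25 genes in NestinTK+ mice and of -1.17 in NestinTK- mice, where 24 of 25 were below 0 with GCV. They summed to 86.9 to 108 CPM in NestinTK-GCV+ and 135 to 207 CPM in NestinTK-PBS+ libraries, and to 114 to 150 CPM in NestinTK+GCV+ and 128 to 196 CPM in NestinTK+PBS+ libraries. The difference between genotypes had a median of 0.84 over these genes, with 0 at an adjusted p under 0.05 by edgeR. At an unadjusted edgeR p of at most 0.01, 3 were higher, against 531 of all 14779 genes tested. Potassium channel genes had a median of -0.14 in NestinTK+ and 0.25 in NestinTK- mice over 49 genes.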
